A study of Mus musculus with 6 samples.

Results

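The Nodal signalling genes Nodal, Tdgf1, Lefty1, Lefty2 and Gdf1 were examined by RNA-seq in the gonads of male E13.5 mouse embryos, a stage soon after the testis has formed. The members were picked by symbol, and 4 of the 5 were found among the 16862 genes of the deposited table: Nodal, Tdgf1, Lefty1 and Lefty2. Gdf1, which encodes a partner ligand of Nodal, was not analysed here, nor was Cers1, whose transcript overlaps it. The knockout group comprised 3 libraries (numbered 5, 7 and 8) from L/H-Pgds-/- embryos, which lack both prostaglandin D synthases, L-Pgds and H-Pgds. The wild-type group comprised 3 libraries (numbered 1, 3 and 4). All embryos were of the C57BL/6 strain, and RNA of all cells of the dissected gonad was sequenced together, so fewer cells of a type and less RNA per cell cannot be told apart. The labels speak of 6 different littermates but do not tie libraries to litters. If libraries shared more than their genotype, the p-values below measure only the spread between these samples.

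Nodal is a secreted ligand of the TGF-beta family that binds type I and type II activin receptors. It needs a membrane-anchored co-receptor such as Cripto, the product of Tdgf1. The receptors phosphorylate Smad2 and Smad3, which enter the nucleus with Smad4 and act on DNA with partners such as Foxh1. Lefty1 and Lefty2 are secreted inhibitors that bind Nodal and its co-receptor, and in the early embryo they are themselves switched on by the pathway, as is Nodal. In the fetal mouse testis Nodal signalling is known from germ cells around the time they take the male fate.

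Lefty1 and Lefty2 are neighbouring paralogs, and their sequences bear on how far each value can be trusted. In mm9, Lefty2 (NCBI gene 320202) spans bases 182823250 to 182829233 of chromosome 1 and Lefty1 (NCBI gene 13590) spans 182865170 to 182868532, with 35.9 kb between them. Their coding sequences in GENCODE vM21 (GRCm38) are each 1104 bases long and were identical at 1014 positions (91.8%). The 60-base coding stretch in which they differ most, from base 34 to 93, differs at 18 positions, given in capitals, with coding bases counted from the A of the start codon. Reads from such stretches can separate the genes.
Lefty1: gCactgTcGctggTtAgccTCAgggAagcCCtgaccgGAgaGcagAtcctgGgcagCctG
Lefty2: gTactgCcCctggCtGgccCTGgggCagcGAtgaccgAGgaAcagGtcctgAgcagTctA
Of all 50-base windows of the longest coding transcript, 17.9% of those of Lefty1 and 11.6% of those of Lefty2 occur unchanged in the other gene. How the authors treated reads that match both is not given in the sources used here, so each gene is reported alone and also as the sum of the pair.

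Values are the authors' upper-quartile normalised pseudo-counts, called normalised values here. They are fractional and are not reads, so the sequencing depth is unknown and no counting interval is given. The libraries summed to between 21657342 and 21846849 in knockout and between 22881124 and 23734462 in wild type. Ptgds, which encodes L-Pgds, had normalised values of 15.2, 4 and 2.94 in the knockout libraries and 6560, 8137 and 8712 in the wild-type libraries, in accord with the labels. Hpgds, which encodes H-Pgds, was not low in knockout: its normalised values were 87.8, 87.3 and 104 in the knockout libraries and 45.0, 47.5 and 55.0 in the wild-type libraries (log2 0.90, limma adjusted p = 0.00853). With a trend of transcript length and GC content removed, as described below, Hpgds did not pass (log2 0.61, limma adjusted p = 0.107). The labels do not say which part of Hpgds was deleted, so whether its values bear on that allele cannot be told. The Sertoli cell gene Amh, a marker of the fetal testis, was between 36640 and 59870 in knockout and between 53140 and 72630 in wild type. Differences were tested by limma on log2(value + 1) over the 15116 genes that reached 10 in 3 or more libraries, with Benjamini-Hochberg adjustment and a threshold of 0.05. In this test 5180 genes changed.

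None of the 4 measured Nodal signalling genes passed the test between knockout and wild type, against a background of 34.3% of genes, and in all 4 the libraries of both genotypes overlapped. All 4 passed the filter on low values. For comparison, 50.3% of all tested genes had knockout and wild-type libraries fully apart. The median log2 difference of the members was -0.06, and that of all tested genes was -0.03.

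Nodal itself (NCBI gene 18119, chromosome 10, 60880720 to 60888085 in mm9) had normalised values of 486, 383 and 377 in knockout libraries 5, 7 and 8, and of 360, 391 and 560 in wild-type libraries 1, 3 and 4. The highest and the lowest library were both wild type, with the knockout libraries between them. The means were 416 ± 60.9 in knockout and 437 ± 108 in wild type (SD, n = 3 each). The log2 difference was -0.05 (95% interval -0.45 to 0.34, limma adjusted p = 0.833). The values do not tell apart changes of Nodal within that interval, in either direction.

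Tdgf1, which encodes the co-receptor Cripto (NCBI gene 21667, chromosome 9, 110842112 to 110848662 in mm9), had normalised values of 89.8, 79.9 and 101 in the knockout libraries, against 63.6, 95.3 and 135 in the wild-type libraries. As for Nodal, the wild-type libraries lay on both sides of all knockout libraries, with library 1 lowest and library 4 highest. The means were 90.3 ± 10.6 in knockout and 98.0 ± 35.8 in wild type (SD, n = 3 each), and the log2 difference was -0.06 (95% interval -0.65 to 0.54, limma adjusted p = 0.882). Of the 4 genes, Tdgf1 had the widest interval.

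Lefty1, an inhibitor of Nodal, had normalised values of 1397, 1649 and 1224 in the knockout libraries and of 1459, 1493 and 1868 in the wild-type libraries. Knockout libraries 5 and 8 were below every wild-type library, while knockout library 7 was above wild-type libraries 1 and 3. The log2 difference was -0.18 (95% interval -0.47 to 0.12, limma adjusted p = 0.323). Lefty2, the second inhibitor, had normalised values of 2111, 2357 and 1768 in the knockout libraries and of 1392, 1831 and 1806 in the wild-type libraries. Knockout libraries 5 and 7 were the highest, and knockout library 8 lay among the wild-type libraries. The means were 2079 ± 296 in knockout and 1676 ± 247 in wild type (SD, n = 3 each). The log2 difference of Lefty2 was 0.31 (95% interval 0.01 to 0.61), which did not pass after adjustment (unadjusted p = 0.0422, limma adjusted p = 0.0969). It passed without knockout library 8, at a log2 difference of 0.42 (limma adjusted p = 0.0436), while without wild-type library 1 the log2 difference was 0.18 (adjusted p = 0.294).

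**Figure D1:**
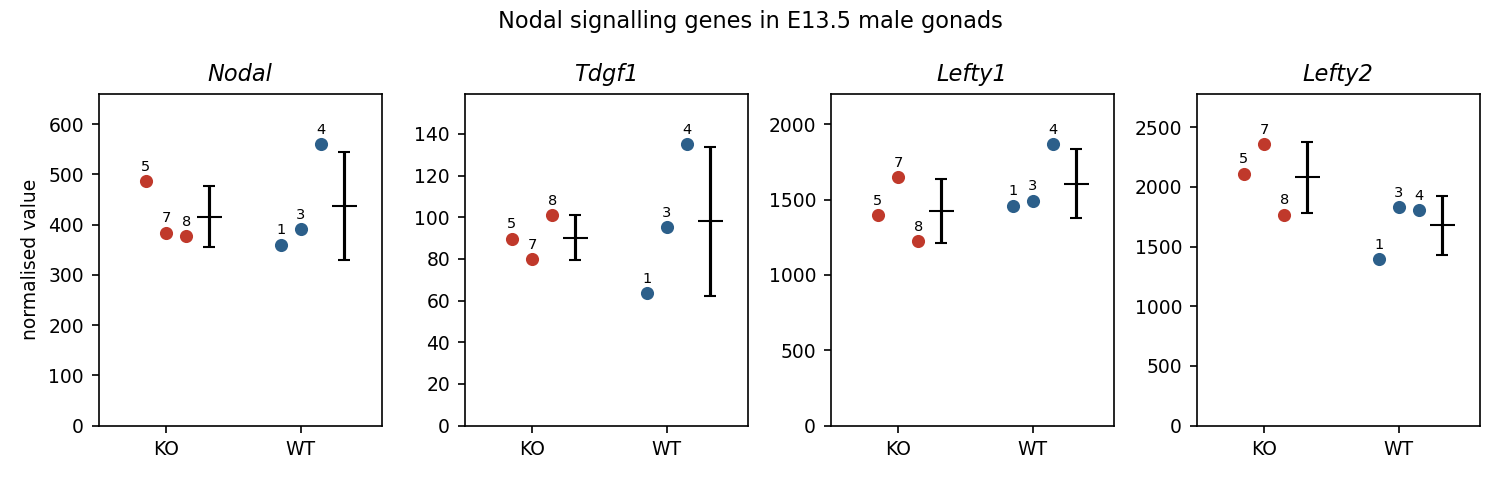
Normalised value (vertical axis, linear from 0) of Nodal, Tdgf1, Lefty1 and Lefty2 in knockout (KO, red) and wild-type (WT, blue) libraries; points are libraries with their numbers, and the black bar with whiskers is the group mean with its SD (n = 3). The genotypes overlap in every panel, and wild-type library 1 is the lowest wild-type point in each, from 63.6 for Tdgf1 to 1459 for Lefty1.

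The estimates for Lefty1 and Lefty2 had opposite signs, and the ratio of the pair separated the genotypes in the values as deposited. The ratio of Lefty2 to Lefty1 was 1.51, 1.43 and 1.45 in the knockout libraries and 0.954, 1.23 and 0.967 in the wild-type libraries. All knockout libraries were above all wild-type libraries, a description made after the values were seen, with no test. Summed over the pair, the normalised values were 3508, 4006 and 2992 in the knockout libraries and 2851, 3324 and 3674 in the wild-type libraries, which overlap, with a log2 difference of 0.09 (95% interval -0.19 to 0.37, limma adjusted p = 0.599). The sum stood at 7.22, 10.5 and 7.93 times Nodal in the knockout libraries and at 7.93, 8.50 and 6.56 times Nodal in the wild-type libraries, again overlapping.

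Among genes that passed the test, the direction of the difference went with transcript length and GC content, which touches the Lefty pair directly. Genes that passed as higher in knockout had a median transcript length of 5188 nt and a median GC content of 45.4%. Those that passed as lower had medians of 1710 nt and 55.4%. The longest coding transcript of Lefty2 has 2473 nt and 51.5% GC, that of Lefty1 1620 nt and 58.6%, that of Nodal 2095 nt and 55.9%, and that of Tdgf1 1932 nt and 45.3%. With this trend removed in each library, the log2 differences were 0.45 for Lefty2 (limma adjusted p = 0.0770), 0.32 for Lefty1 (0.222), 0.29 for Nodal (0.326) and -0.01 for Tdgf1 (0.985), and the background was 11.4%. The directions of Lefty1 and Nodal turned with this correction, no member passed, and the sum of the Lefty pair had a log2 difference of 0.42. The log2 of the Lefty2 to Lefty1 ratio was then 0.44, 0.24 and 0.43 in the knockout libraries and 0.12, 0.41 and 0.17 in the wild-type libraries, and the genotypes overlapped.

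**Figure D2:**
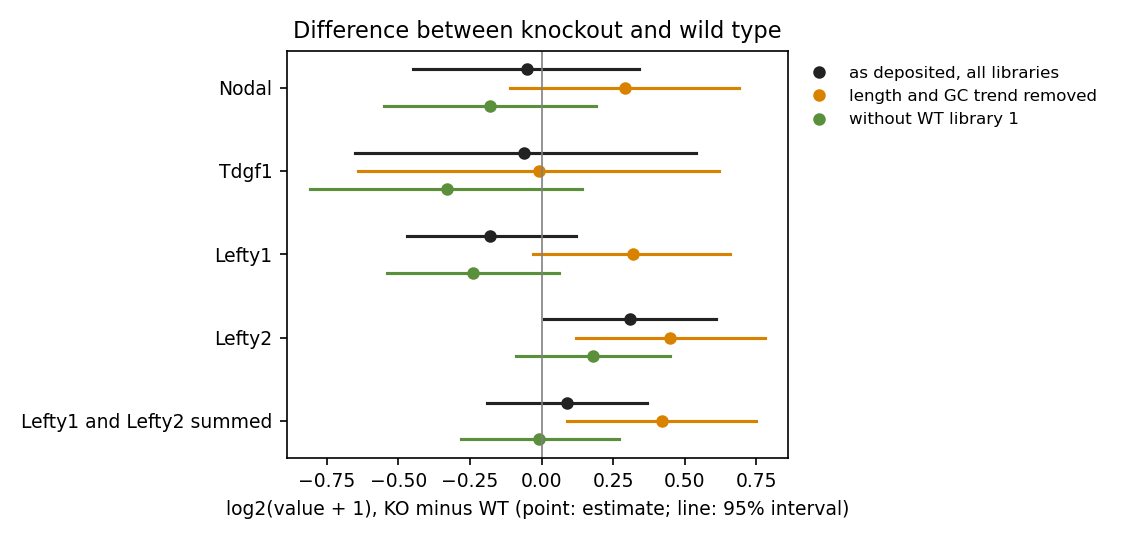
Difference of log2(value + 1) between knockout and wild type (horizontal axis, positive means higher in knockout) for the 4 genes and for the Lefty pair summed; points are estimates, lines 95% intervals, and colours show all libraries (black), the length and GC trend removed (orange) and wild-type library 1 left out (green). With wild-type library 1 left out the estimates lie between -0.33 for Tdgf1 and 0.18 for Lefty2, and with the trend removed Lefty1 lies at 0.32 in place of -0.18.

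Per kilobase of longest coding transcript, both Lefty genes stood above Nodal, and Nodal above Tdgf1, in all 6 libraries. Lefty1 had 879 ± 132 normalised values per kb in knockout and 992 ± 140 in wild type (SD, n = 3 each). Lefty2 had 841 ± 120 per kb in knockout and 678 ± 99.9 in wild type. Nodal had 198 ± 29.1 per kb in knockout and 209 ± 51.4 in wild type, and Tdgf1 had 46.7 ± 5.51 in knockout and 50.7 ± 18.5 in wild type. Lefty1 was above Lefty2 per kb in all 6 libraries, but in knockout their mean levels differed by less than their SD, while Nodal and Tdgf1 were apart from their neighbours in this order beyond the SD in both genotypes.

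Wild-type library 1 stood apart from the other libraries in genes of male germ cell differentiation, in which it was high. Among the wild-type libraries it was the lowest for all 4 Nodal signalling genes. Of all 6 libraries it was the lowest for Nodal, Lefty2 and Tdgf1, and it ranked 4 for Lefty1. Low values there were not particular to these 4 genes. Of 39 further pathway genes described below, library 1 of wild type was the lowest of 6 for 20 and the highest for 4. For this count and the marker counts of library 1 below, the share over all tested genes is not given here. Whether such counts are particular to these lists can therefore not be told. Foxh1, the DNA-binding partner of the Smads in Nodal signalling, had normalised values of 379, 318 and 292 in the knockout libraries and of 140, 365 and 372 in wild-type libraries 1, 3 and 4, with library 1 again lowest. In contrast, Nanos2, an RNA-binding protein of male germ cell fate, had values of 37.8, 108 and 49.0 in the knockout libraries and of 798, 37.4 and 55.5 in the wild-type libraries. Wild-type library 1 was the highest of 6 libraries for 7 of 9 male germ cell differentiation genes, and for 5 of 12 general germ cell markers. Within wild type it was the highest for 11 of these 12, whereas Kit, a receptor of early germ cells, was lowest there of all 6 libraries. Between the genotypes, 2 of the 12 general markers rose in knockout (Ddx4 and Kit) and 0 fell, against backgrounds of 17.3% higher and 17.0% lower, with a median log2 difference of -0.14. Both calls ended with the length and GC trend removed (limma adjusted p = 0.165 for Ddx4 and 0.0746 for Kit), and that of Ddx4 also ended without any 1 of knockout libraries 5 and 7 and wild-type libraries 3 and 4 (adjusted p up to 0.114). With a library left out, 1 to 4 of the 12 general markers passed as higher and 0 to 4 as lower. Without wild-type library 3, Pou5f1, Dnd1, Nanos3 and Tex101 passed as lower. Rnf17 and Stk31 passed as higher without wild-type library 1 (log2 0.68 and 0.62, limma adjusted p = 0.00808 and 0.0494). None of the 8 tested male differentiation genes passed in the main test. With the length and GC trend removed, Pld6 passed as higher in knockout (log2 0.61, limma adjusted p = 0.0351). Without wild-type library 1, Piwil2 and Tdrd1 passed as higher (log2 0.42 and 0.72, limma adjusted p = 0.0345 and 0.0222). Without wild-type library 3, Dnmt3a passed as higher and Gtsf1 as lower.

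By the mean of their log2 values, the general germ cell markers were highest in wild-type library 1 and next highest in knockout library 7. Their sum was between 25000 and 42240 in knockout and between 22790 and 36390 in wild type, with 36390 in library 1. By the sum, the highest library was thus a knockout library. The mean log2(value + 1) of the 12 general germ cell markers, among them Ddx4, Dazl and Pou5f1, was 10.02, 10.57 and 9.98 in the knockout libraries and 10.86, 9.79 and 10.16 in the wild-type libraries. Subtracting this mean lowers the members most in those 2 libraries by construction, so the relative values are given as a description. Relative to it, log2 Lefty2 was 1.02, 0.63 and 0.81 in the knockout libraries and -0.42, 1.05 and 0.66 in wild-type libraries 1, 3 and 4. Log2 Nodal was -1.10, -1.98 and -1.42 in the knockout libraries and -2.37, -1.17 and -1.02 in the wild-type libraries. Other cell types also differed in wild-type library 1: summed erythroid markers were between 83970 and 123400 in knockout and between 37370 and 140600 in wild type, with 37370 in library 1. The summed fetal Leydig cell markers were between 59500 and 81400 in knockout and between 77730 and 118700 in wild type, with 118700 in library 1. The part of cell content in the values of the Nodal signalling genes was not tested.

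**Figure D3:**
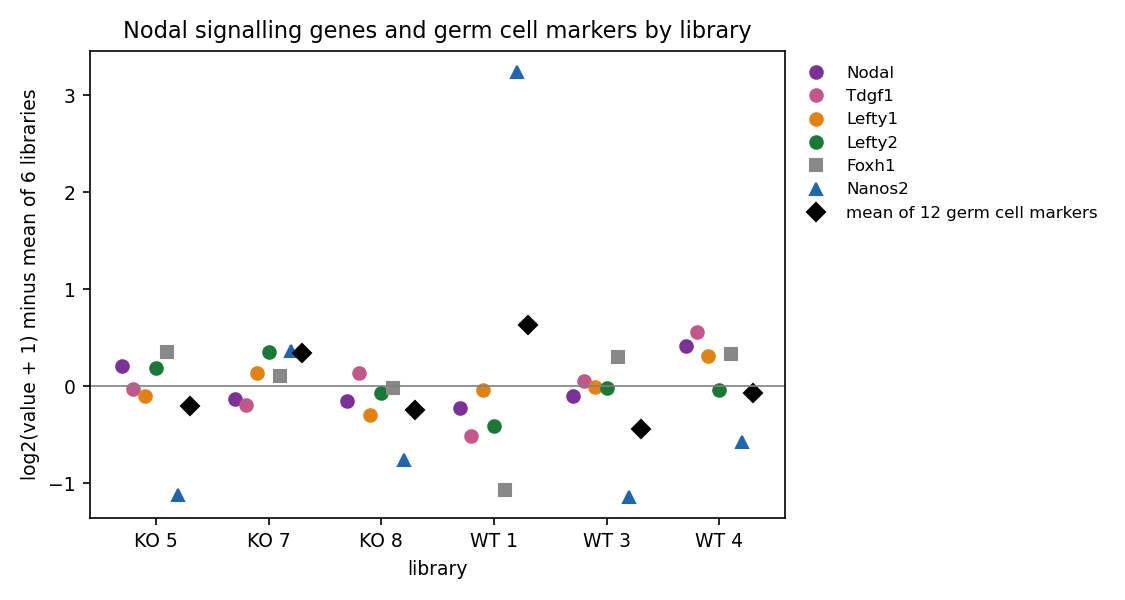
Log2(value + 1) minus its mean over the 6 libraries (vertical axis) in each library (horizontal axis, KO then WT) for Nodal, Tdgf1, Lefty1 and Lefty2 (circles), Foxh1 (squares), Nanos2 (triangles) and the mean of 12 general germ cell markers (diamonds). In wild-type library 1, Nanos2 is 3.24 above and the germ cell mean 0.63 above their means, while Foxh1 is 1.07 below its mean (-1.07) and the 4 Nodal signalling genes are between -0.52 and -0.04.

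The wider pathway was described by 40 further genes in 6 lists, of which 39 were in the table and 38 were tested. Of these, 10 were higher and 4 lower in knockout, against backgrounds of 17.3% of genes higher and 17.0% lower. The same backgrounds apply to the counts of each list below, which are small. Of the 39 genes, 19 had knockout and wild-type libraries fully apart, beside 50.3% of all tested genes. The median log2 difference of the 38 genes was 0.25, beside -0.03 over all tested genes. In the fit corrected for length and GC content, 4 genes passed as higher and 3 as lower, against backgrounds of 5.68% and 5.77%, and the median over the 38 was 0.13 on the log2 scale.

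Of the 4 receptor genes, 2 rose in knockout and 0 fell, with a median log2 difference of 0.93 over the 4. Acvr1b, the type I receptor ALK4 through which Nodal and activin signal, had normalised values of 533, 472 and 583 in the knockout libraries and of 212, 294 and 222 in the wild-type libraries. The genotypes were fully apart, and Acvr1b was 2.19-fold higher in knockout (log2 1.13, SE 0.15, limma adjusted p = 0.00168). With the length and GC trend removed it remained past the threshold (log2 1.07, SE 0.14, adjusted p = 0.00344), as it did with each library left out (log2 from 1.04 to 1.28). Acvr2a, a type II receptor, had normalised values of 533, 614 and 455 in the knockout libraries and of 298, 353 and 285 in the wild-type libraries, also fully apart (log2 0.77, SE 0.14, limma adjusted p = 0.00369). Its call ended with the trend removed, where the log2 difference was 0.22 (adjusted p = 0.212). Its transcript is long and AT-rich, with 5686 nt and 39.9% GC. Acvr2b, the other type II receptor, averaged 175 ± 17.5 in knockout and 141 ± 10.2 in wild type (SD, n = 3 each) and did not pass (limma adjusted p = 0.160). Acvr1c, which encodes the type I receptor ALK7, had values of 59.1, 45.9 and 36.1 in the knockout libraries and of 7.70, 40.6 and 29.5 in the wild-type libraries, which overlap (limma adjusted p = 0.129). These receptors also bind activins, so their values are not those of Nodal signalling alone.

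**Figure D4:**
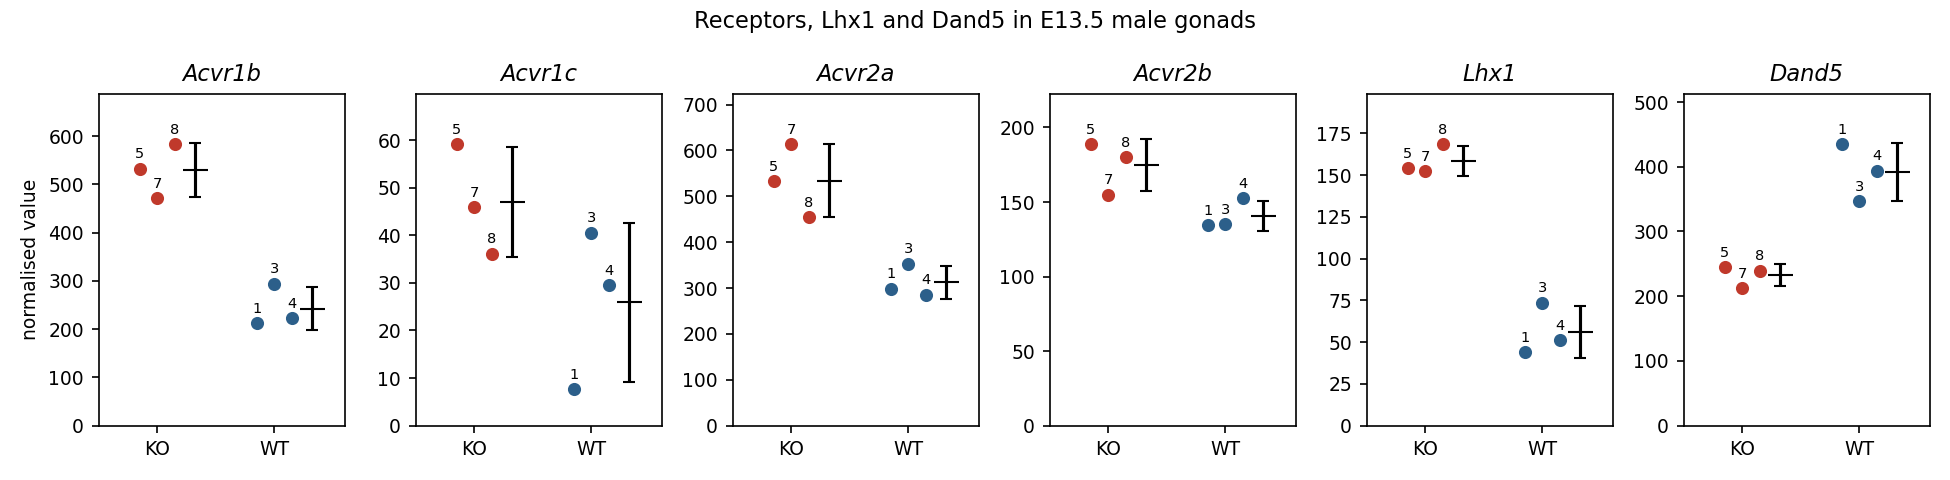
Normalised value (vertical axis, linear from 0) of the 4 receptor genes, Lhx1 and Dand5 in knockout (KO, red) and wild-type (WT, blue) libraries; points are libraries with their numbers, and the black bar with whiskers is the group mean with its SD (n = 3). Acvr1b, Acvr2a, Acvr2b and Lhx1 have all knockout points above all wild-type points, Dand5 has them below, and Acvr1c overlaps.

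Among Smads and nuclear partners, 4 of 8 genes rose and 0 fell. Smad2 and Smad3, the Smads that carry the signal, averaged 2560 ± 201 and 2196 ± 178 in knockout, against 2200 ± 81.6 and 1880 ± 245 in wild type (SD, n = 3 each), and neither passed (limma adjusted p = 0.0807 and 0.129). With the length and GC trend removed the log2 difference of Smad2 turned to -0.28 and passed (adjusted p = 0.0371). Smad4, their common partner, was 1.21-fold higher (limma adjusted p = 0.0300). Its call was kept when wild-type library 3 was left out and ended when any other single library was (adjusted p up to 0.116), as it did with the trend removed (0.125). Ep300, a histone acetyltransferase that Smads recruit, was 1.66-fold higher in knockout, at 2182 ± 227 against 1310 ± 107 (SD, n = 3 each), and passed in both fits (limma adjusted p = 0.00179, and 0.0191 with the trend removed). Trim33, a ubiquitin ligase that binds Smads, and Zfyve9, a Smad anchor, were 1.71-fold and 1.36-fold higher (limma adjusted p = 0.00270 and 0.0110), and both calls ended with the trend removed (limma adjusted p = 0.232 and 0.871). The call of Zfyve9 also ended without wild-type library 4 (adjusted p = 0.0501).

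Intracellular inhibitors moved in both directions, with 3 of 9 higher and 2 lower. Smad7, the inhibitory Smad that TGF-beta signals induce, had normalised values of 1828, 2032 and 1860 in the knockout libraries and of 1330, 1513 and 1438 in the wild-type libraries. The groups did not overlap, and Smad7 was higher in both fits (log2 0.42, SE 0.09, limma adjusted p = 0.00645, and log2 0.47 with adjusted p = 0.0164 with the trend removed). Skil, which encodes the Smad corepressor SnoN, was 1.71-fold higher and Smurf2, a ubiquitin ligase for the receptors and Smads, 1.35-fold higher (limma adjusted p = 0.00189 and 0.00785). Drap1, a corepressor that restrains Nodal in the mouse embryo by binding Foxh1, averaged 4920 ± 591 in knockout and 8071 ± 902 in wild type (SD, n = 3 each; log2 -0.72, SE 0.12, limma adjusted p = 0.00228). Its transcript is short and GC-rich, with 992 nt and 60.6% GC, and with the trend removed its log2 difference was -0.06 (adjusted p = 0.696). Tgif2, another corepressor, was also lower (log2 -0.31, limma adjusted p = 0.0211), a call that ended without knockout library 8 or wild-type library 4 (adjusted p up to 0.0944). Ski, a corepressor related to SnoN, averaged 4619 ± 189 in knockout and 4275 ± 356 in wild type (SD, n = 3 each) and did not pass (limma adjusted p = 0.346). The calls of Skil, Smurf2 and Tgif2 ended with the trend removed (adjusted p = 0.200, 0.468 and 0.328), and Ppm1a, a Smad phosphatase, and Nedd4l, a ubiquitin ligase, then passed as lower (log2 -0.39 and -0.53, limma adjusted p = 0.0203 and 0.0109).

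Of the related ligands and extracellular modulators, 2 of 4 tested genes were lower in knockout and 0 were higher. Dand5, a secreted inhibitor of Nodal that acts at the left-right organiser of the mouse embryo, had normalised values of 245, 213 and 240 in the knockout libraries and of 435, 346 and 394 in the wild-type libraries. The genotypes were fully apart (log2 -0.75, SE 0.14, limma adjusted p = 0.00340), and with the trend removed the log2 difference was -0.31 and did not pass (adjusted p = 0.0983). Gdf3, a Nodal-related ligand of pluripotent cells, had values of 188, 217 and 156 in the knockout libraries and of 244, 241 and 297 in the wild-type libraries (log2 -0.49, limma adjusted p = 0.0455). Its call ended without any 1 of knockout libraries 5 and 8 and wild-type libraries 3 and 4 (adjusted p up to 0.165), and with the trend removed (0.189). Nomo1 and Tmed10, both proteins of the secretory pathway, did not pass (log2 0.12 and -0.16, limma adjusted p = 0.464 and 0.164). Cer1, another secreted Nodal inhibitor, was below the filter, at 6.14, 8.89 and 7.64 in the knockout libraries and 7.27, 5.96 and 3.16 in the wild-type libraries. The proteases that mature Nodal and its relatives did not pass: Furin averaged 2371 ± 143 in knockout and 2289 ± 162 in wild type, and Pcsk6 averaged 2622 ± 426 in knockout and 2538 ± 490 in wild type (SD, n = 3 each; limma adjusted p = 0.680 and 0.809). Pcsk5 averaged 3256 ± 86.1 in knockout and 2673 ± 393 in wild type (SD, n = 3 each), and its groups were apart (limma adjusted p = 0.0602).

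Of 10 transcripts known as Nodal targets in the early embryo, 1 rose and 0 fell. Lhx1, a homeobox gene of the early embryo and the nephric system, had normalised values of 154, 152 and 169 in the knockout libraries and of 44.0, 73.6 and 51.0 in the wild-type libraries. It was 2.85-fold higher in knockout (log2 1.51, SE 0.22, limma adjusted p = 0.00185) and passed in each of 20 alternative fits, with log2 differences of 1.33 or more. None of the 4 mesonephric epithelium markers passed, and their median log2 difference was -0.40. Emx2, which makes up most of their sum, had a log2 difference of 0.29, and Pax2, Pax8 and Cdh16 had -0.28, -0.52 and -1.21. The sum was between 1448 and 1698 in knockout and between 1120 and 2000 in wild type. Without wild-type library 1, Pax8 and Cdh16 passed as lower in knockout (log2 -0.74 and -2.13, limma adjusted p = 0.0148 and 0.0283). The part of mesonephric tissue in the Lhx1 values was not tested. The other targets did not pass. Otx2, a homeobox gene of the anterior embryo, averaged 133 ± 19.4 in knockout and 89.9 ± 24.4 in wild type (SD, n = 3 each; limma adjusted p = 0.0706). Without wild-type library 1, Otx2 passed (adjusted p = 0.0123). Sox17, an endoderm factor, averaged 339 ± 47.2 in knockout and 333 ± 68.6 in wild type (SD, n = 3 each; limma adjusted p = 0.883). Nanog, the pluripotency factor, averaged 41.2 ± 7.66 in knockout and 29.2 ± 7.19 in wild type (SD, n = 3 each; limma adjusted p = 0.211). Gsc, Eomes, Mixl1 and Foxa2 were near the filter, with means of 9.85, 12.6, 11.1 and 11.6 in knockout and of 26.1, 15.6, 9.39 and 10.8 in wild type.

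The genes whose library pattern was most like that of a member were found by the root mean square difference of log2(value + 1), centred on each gene's mean over the 6 libraries. For Lefty2 the nearest were Pde12, Fbxo33 and Tspyl5, at 0.0368, 0.0505 and 0.0565, with a median over all other tested genes of 0.329. For Lefty1 they were Mrpl32, Nhp2l1 and Sp5, at 0.0365, 0.0424 and 0.0516, with a median of 0.294. For Nodal the nearest was Gabrb1 at 0.0804 and for Tdgf1 Got1l1 at 0.0975. These are likenesses over only 6 libraries, which were normalised together.

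Promoter windows of 300 bases from RefSeq (GRCm38.p6) were at hand for Nodal, Tdgf1 and Gdf1, in 4 windows. None held the FOXH1 motifs AATCCACA or AATACACA or the SMAD motif GTCTAGAC on either strand. Over all 32851 windows the shares with these motifs were 0.855%, 0.980% and 0.213%. At such shares 4 windows would rarely hold a motif, so their absence says little about these genes. No window was at hand for Lefty1 or Lefty2.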

How the data were processed

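RNA from dissected male gonads was prepared with the Illumina TruSeq RNA kit, per the labels' protocols. The deposited table holds a signal per gene, the authors' upper-quartile normalised pseudo-counts, which are fractional. Per the submitters' processing notes, CASAVA 1.8.2, edgeR 2.6.2 and genome build mm9 were used; the role of each tool, and the read strand setting, were not given in the sources used here. Symbols and positions are from UCSC and identifiers from NCBI, per the file headers. All 6 value columns matched a library by name, with 0 left over. The depth is unknown.

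The test was limma 3.58.1 (R 4.3.3, two-sided, with a mean-dependent prior) on log2(value + 1); such fold changes understate those of low genes. Figures used matplotlib 3.10.9 in Python 3.11.15. Transcript length and GC content came from the longest protein-coding transcript in GENCODE vM21, matched by NCBI gene identifier, for 14449 genes (95.6%); their trend was removed in each library by natural splines (4 degrees of freedom for length and for GC). The test was checked on simulated data. An exact permutation test of 3 against 3 libraries cannot go below p = 0.1. The members, lists, named-gene rule (all members, pathway genes past the threshold and up to 3 per list by level, and the 3 nearest genes) and alternatives were chosen with earlier results of these data known; Foxh1, Acvr1c, Cer1, Nedd4l, Nanog and the low targets were named after their values were seen. A few items are not reported here.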

Additional observations from a re-analysis of the deposited data

How the results depend on the processing

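No member passed in the main test. Under 21 alternatives Lefty2 alone of the members passed, with log2 differences of 0.41 with scaling to equal totals, 0.29 with library weights, 0.31 at a threshold of 0.1 and 0.42 without knockout library 8. The sign changed for Nodal (0.05 with equal totals, 0.04 with library weights, 0.29 with the length and GC trend removed, 0.13 with wild-type library 1 also left out, and 0.02 scaled to germ cell markers), for Lefty1 (0.32 with the trend removed, and 0.21 where library 1 of wild type was left out too) and for Tdgf1 (0.04 with equal totals and 0.02 scaled to germ cell markers). With each library left out in turn, the log2 difference ran from -0.18 to 0.14 for Nodal, from -0.29 to -0.06 for Lefty1, from 0.18 to 0.42 for Lefty2, from -0.33 to 0.20 for Tdgf1 and from -0.01 to 0.20 for the Lefty sum. The sign turned without knockout library 8 or wild-type library 4 for Nodal, without knockout library 7 or wild-type library 4 for Tdgf1, and without knockout library 7 or wild-type library 1 for the sum. Genes past the threshold numbered 3032 to 5041 in those fits (the lowest being without library 4 of wild type), 1654 with the trend removed, 1782 with wild-type library 1 also left out and 141 scaled to germ cell markers. Pathway genes that were higher numbered 8 to 13 with a library left out, 15 with equal totals, 16 with library weights, 4 and 5 with the trend removed, and 1 scaled to germ cell markers, where Lhx1 alone passed; those that were lower numbered 2 to 4 with a library left out (2 without knockout library 8 or wild-type library 4), 2 with equal totals, 6 with library weights, 2 with no mean-dependent prior and 0 scaled to germ cell markers. With equal totals 67.5% of called genes were higher, against 50.4% in the main test. The causes were not tested. No paired analysis was possible because knockout and wild-type libraries share no replicate number. The unknown depth limits what can be said of low genes such as Tdgf1.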
